A study of Mus musculus with 10 samples.

Results

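Genes of antigen presentation through the major histocompatibility complex, called H2 in the mouse, were followed across 10 spontaneous mouse lymphomas. The members were all non-control array probes whose gene name begins with H2-, together with the probes for Cd74, B2m, Ciita, Tap1, Tap2, Tapbp, Psmb8, Psmb9 and Psmb10. They came to 46 of the array's 27827 gene names, read by 75 of its 41174 probes. Nlrc5 was also named for inclusion, and it is not analysed here because no probe carried that name. By gene name, 8 probes belong to the classical class I genes and 33 to the non-classical class I genes. Another 11 belong to the class I machinery, 18 to class II and 2 to the class II partners Cd74 and Ciita. The last 3 belong to other genes of the region (H2-Ke2, H2-Ke6 and H2-gs10).

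In 5 of the mice, labelled +/L, 1 allele of the transcription factor gene C/EBPb makes the short isoform LIP, and the other 5 were wild type (+/+). LIP keeps the DNA-binding end of C/EBPβ, has little of its activation domain and acts against the longer isoforms. The +/L mice were mice 20, 23, 517, 688 and 866, killed at 11 to 21 months (median 20), of which 4 were labelled female and 1 male. The +/+ mice were mice 11, 17, 19, 40 and 101, killed at 20 to 29 months (median 26), of which 3 were labelled female and 2 male. All were untreated, were housed pathogen-free, and gave whole lymphoma tissue as it arose, 1 tumour and 1 single-colour array of 60-base probes each. The strain, the H2 haplotype and the type of lymphoma are not given in the sources used here.

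Class I molecules sit on almost all nucleated cells and show peptides made from proteins of the cell's own interior to CD8 T cells. Their heavy chain pairs with β2-microglobulin and is loaded in the endoplasmic reticulum with peptides cut by the proteasome and pumped in by the TAP transporter. Class II molecules are made mainly by B cells, dendritic cells and macrophages, show peptides from the endosome to helper T cells, and depend on the invariant chain and on the transactivator CIITA. Interferon-γ raises both classes.

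All 11 B-cell markers and all 10 T-cell markers looked up were well above background on all 10 arrays. The 8 macrophage markers were too, and this detection cannot check the label lymphoma against other lymphoid tissue. The tumours differed in make-up. Mouse 20 had the highest plasma cell score (2.09, where a score is a mean log2 deviation over a marker list) and the lowest T-cell score (-1.79), mouse 866 the lowest B-cell score (-1.64), and mouse 517 the lowest macrophage score (-2.14). Xist and Y-linked transcripts went against the labelled sex on 2 arrays, those of mice 20 and 11. Where leaving out mouse 20, or both mice, moved a printed difference of a member gene's brightest probe by over 1.5 times, that value is given beside it. For genes that are not members no such values are given, and some of their differences also lean on mouse 20. By the file headers the arrays lay on 3 slides with both genotypes on each, and differences within slides refer to these. By the descriptions, which place 2 arrays otherwise, 1 of the 3 slides held +/+ tumours only. Between 48.0% and 66.7% of spots were well above background on an array, and the number of 5 arrays a group limits the precision of every comparison.

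A level is the log2 processed signal of a probe minus the 75th percentile of its own array, so 0 marks that percentile. Levels are compared between tumours, not between probes. Of the 75 member probes, 65 were well above background on 3 or more of the 10 arrays and were kept. Tumour values are listed in the order of mice 20, 23, 517, 688 and 866 for +/L and of mice 11, 17, 19, 40 and 101 for +/+. A genotype difference is always the +/L mean minus the +/+ mean in log2 units.

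The comparison for which the series was set up is +/L against +/+. Most bright class I, class II and machinery probes read lower in the +/L tumours, and none passed the test across all probes. Of the 65 kept members, 51 had a negative and 14 a positive difference, and the smallest limma adjusted p among them was 0.594. Across all 26410 kept probes, 0 had a limma adjusted p under 0.05 (share called 0%), and 2103 had an unadjusted p under 0.05. At that unadjusted threshold 27 members were lower in +/L and 0 were higher, beside 4.67% of all kept probes lower and 3.29% higher. The 5 +/L values lay wholly below the 5 +/+ values for 17 members, beside 1.22% of all kept probes. In whole tumours, fewer cells of a type and less RNA per cell cannot be told apart.

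The direction went with signal brightness in the rest of the array too. Among kept probes that were not members, the median difference was 0.37 at levels from -6 to -5, -0.12 at levels from 2 to 3 and -0.42 at levels from 8 to 9. Of the 746 kept probes with a mean level of 5 or more, 16.9% were lower at an unadjusted p under 0.05, 0% were higher, and 5.9% had non-overlapping groups. The arrays of +/L tumours had a mean 75th percentile, the value used for scaling, of 434 ± 129, and those of +/+ tumours 288 ± 61.1 (SD, n = 5 each). Quantile normalization, which gives all arrays 1 distribution, brought the members lower at an unadjusted p under 0.05 from 27 to 4, beside 5.87% of all kept probes. These 4 were probes of Tap1, Tapbp (2 probes) and H2-T22. With the slide as a block, 22 members were lower by the slide in the file headers and 1 by the slide in the descriptions, and 11 were with age as a covariate. In the same fits the 2103 kept probes at that threshold, in either direction, became 1860, 963 and 1517.

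**Figure D1:**
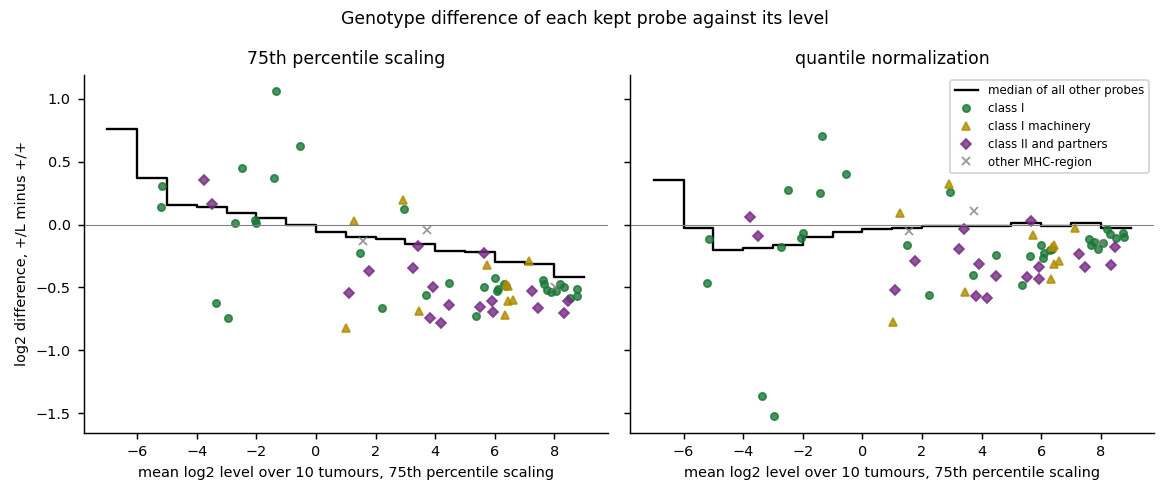
Genotype difference (+/L minus +/+, log2 units) of each kept member against its mean log2 level over the 10 tumours, with 75th percentile scaling (left) and after quantile normalization (right). Points are probes by class. The stepped line is the median difference of all other kept probes in each 1-unit level bin with at least 20 probes. On the left the line goes from positive at dim levels to -0.42 at levels from 8 to 9 and the bright class I probes lie near it. On the right the line is near 0 at levels above 2 and most members lie below it.

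The classical class I genes H2-K1 and H2-D1 encode the heavy chains that present most peptides to CD8 T cells, and both read lower in every +/L tumour than in any +/+ tumour. The brightest H2-K1 probe (A_51_P198434, chr17:34133055-34133114 in mm9) read 8.44, 8.69, 8.52, 8.48 and 8.36 in the +/L tumours. In the +/+ tumours it read 8.90, 8.86, 9.04, 8.98 and 9.28. The groups did not overlap, with mouse 23 the highest of the +/L and mouse 17 the lowest of the +/+ tumours. The means were 8.50 ± 0.12 and 9.01 ± 0.16 (SD, n = 5 each), and they differed by -0.51 ± 0.17 (SE), for which limma gave an adjusted p of 0.594 (exact two-sided permutation p = 0.0079, the smallest that 5 against 5 allows). Within the 3 slides it differed by -0.46, -0.30 and -0.80, and after quantile normalization by -0.07. In the authors' deposited value table the sign turned, to 0.12. The other 3 H2-K1 probes differed by -0.44, -0.47 and -0.43, also without overlap.

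H2-D1 was read by a probe (A_52_P313279, chr17:35403132-35403191) that the files list for H2-Q2 as well. Its +/L values were 8.70, 8.67, 8.14, 8.48 and 8.43, and its +/+ values were 8.93, 9.03, 8.95, 9.08 and 9.28. Mouse 517 was lowest and mouse 101 highest, and the groups did not overlap. The difference was -0.57 ± 0.18 (SE) (limma adjusted p = 0.594), with -0.46, -0.52 and -0.68 within the slides and -0.10 after quantile normalization. A probe listed for H2-D1 alone (A_51_P496996) differed by -0.58 ± 0.16 (SE), at 8.23 ± 0.09 against 8.81 ± 0.13 (SD, n = 5 each, limma adjusted p = 0.594). The H2-D4 probe (A_51_P417612) differed by -0.53. The remaining H2-D1 probe (A_52_P246277), placed far from the gene at chr17:36323454-36323516, was well above background on only 3 of 10 arrays and differed by 0.14 (-0.35 without mice 20 and 11). Over the 8 classical probes kept, 7 were lower at an unadjusted p under 0.05. At that threshold 4.67% of all kept probes were lower, and 16.9% of those with a mean level of 5 or more. The median difference of the classical probes was -0.49, or -0.14 after quantile normalization. Other probes of like level had a median of -0.31.

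The start regions of H2-K1 and H2-D1 are shown because they hold the same motifs. Whether the motifs bear on the levels of these genes was not tested. The sequences are from RefSeq (GRCm38.p6) and end at the base before the annotated start: chr17:34000348-34000472 on the minus strand for H2-K1 and chr17:35262909-35263093 on the plus strand for H2-D1. Capitals mark GGGGATTCC, letters of the NF-κB site in class I enhancer A, and TTTCACTTC, the interferon response letters next to it.
H2-K1: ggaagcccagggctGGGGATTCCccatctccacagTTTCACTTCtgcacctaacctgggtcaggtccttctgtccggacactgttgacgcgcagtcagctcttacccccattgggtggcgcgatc
H2-D1: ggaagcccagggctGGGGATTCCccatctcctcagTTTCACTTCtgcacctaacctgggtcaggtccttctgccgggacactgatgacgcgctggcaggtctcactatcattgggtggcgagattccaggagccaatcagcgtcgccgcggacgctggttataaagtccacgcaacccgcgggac
The first motif begins 111 bases before the start of H2-K1 and 171 bases before that of H2-D1, and the second begins 90 and 150 bases before. On either strand, GGGGATTCC is in 0.25% and TTTCACTTC in 0.505% of the 32851 RefSeq start windows of 300 bases (250 before and 50 after the start). Of the 16 non-classical class I genes with a window, H2-Q7 holds both and H2-M3 and H2-Q10 hold TTTCACTTC alone. None of the 8 class II genes with a window holds either. A window was found for 33 of the 46 gene names.

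Non-classical class I genes of the Q, T and M regions encode heavy chains with narrower tissue distribution or special ligands, and their sequences are close to those of H2-K1 and H2-D1. Several probes cannot tell them apart. These pairs are printed because a bright "non-classical" signal here may be read by a probe that nearly matches a classical gene. Capitals mark the bases that both probes of a pair share.
H2-D1 probe A_52_P313279: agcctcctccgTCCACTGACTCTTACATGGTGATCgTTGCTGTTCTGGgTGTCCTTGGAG
H2-Q2 probe A_51_P219789: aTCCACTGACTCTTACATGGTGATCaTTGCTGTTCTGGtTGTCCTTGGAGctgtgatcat
H2-Q10 probe A_51_P496997: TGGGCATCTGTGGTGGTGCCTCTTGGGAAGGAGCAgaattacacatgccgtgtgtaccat
H2-Q5 probe A_51_P400752: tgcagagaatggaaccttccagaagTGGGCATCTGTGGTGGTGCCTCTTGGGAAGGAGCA
The first pair shares 47 of 50 aligned bases, and the second all of its 35 aligned bases. The files list the H2-Q10 probe A_51_P496997 for H2-D1, H2-Q1, H2-Q10 and H2-Q6 together, 4 genes in all. The probes of H2-T23 and H2-Q7 share 50 of 59 aligned bases.

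Several bright Q-region probes had, like the classical ones, genotypes that did not overlap. H2-Q2 (A_51_P219789) read 8.09, 8.23, 7.91, 8.04 and 8.05 in +/L and 8.56, 8.50, 8.49, 8.53 and 8.73 in +/+ tumours, with no overlap and a difference of -0.50 ± 0.16 (SE). H2-Q5 (A_51_P400752) differed by -0.53 ± 0.17 (SE) and the shared H2-Q10 probe by -0.47 ± 0.17 (SE), again without overlap. After quantile normalization these 3 differences were -0.08, -0.20 and -0.04, and the last was 0.015 in the deposited value table. H2-gs10, which the RefSeq table now lists as the class I gene H2-Q4, differed by -0.49, without overlap. The limma adjusted p of each of these was 0.594. The bright H2-Q7 probe (A_51_P262079) did overlap, with mouse 866 at 7.86 above +/+ mouse 40 at 7.79, and differed by -0.52 ± 0.23 (SE) (limma adjusted p = 0.616).

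H2-Q8 and H2-T22 had the lowest p among the non-classical probes. H2-Q8 (A_52_P152133) read 4.88, 5.09, 4.75, 4.91 and 5.35 in +/L and 5.58, 6.03, 5.72, 5.22 and 6.05 in +/+ tumours, so that only mouse 866 (+/L) and mouse 40 (+/+) crossed. It differed by -0.72 ± 0.22 (SE) (limma adjusted p = 0.594) and by -0.48 after quantile normalization. H2-T22 encodes a ligand of γδ T-cell receptors. Its dimmest probe (A_52_P197826) read 2.06, 1.79, 1.76, 1.90 and 1.97 and 2.80, 2.40, 2.66, 2.08 and 2.87, with mouse 40 alone among the +/+ tumours close to the +/L range. That difference was -0.67 ± 0.20 (SE) (limma adjusted p = 0.594), and -0.56 after quantile normalization. The other H2-T22 probes differed by -0.51 and -0.46. H2-T23, whose product Qa-1 presents leader peptides of other class I chains to NK cell receptors, differed by -0.47 with overlapping groups.

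H2-M3, which presents formylated bacterial peptides, had positive differences. Its brighter probe (A_51_P469968, chr17:37411350-37411409) read 2.96, 2.88, 3.44, 2.74 and 3.04 in +/L and 2.74, 2.94, 2.84, 2.93 and 2.99 in +/+ tumours. The groups overlapped, mouse 517 was highest, and the difference was 0.13 ± 0.18 (SE) (limma adjusted p = 0.89), with -0.08, 0.43 and 0.12 within the slides. Its SD over all 10 tumours, 0.20, was the smallest among the 65 kept members. The dimmer H2-M3 probe differed by 0.37.

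H2-Q10 encodes a secreted class I chain known from the liver, and its 5 probes fell into different patterns. The shared bright probe and A_52_P428354 (-0.50) followed the classical genes. The probe A_51_P230267, listed for H2-Q10 alone, read -2.96, -1.93, 0.07, 0.31 and 0.38 in +/L and -2.73, -2.71, -0.18, -1.61 and -2.21 in +/+ tumours. Mice 517, 688 and 866 were the highest, followed by +/+ mouse 19, and the groups overlapped with a difference of 1.06 ± 0.74 (SE) (limma adjusted p = 0.735), or 1.60 without mouse 20. The neighbouring probe A_51_P230269 had the same 4 mice on top and differed by 0.62, or 1.18 without mouse 20 and 0.98 without mice 20 and 11. The fifth probe (A_52_P112219) read -0.33, 1.36, 3.30, -0.19 and 2.74 and 2.11, 2.51, 1.87, 0.08 and 1.44, with mice 20 and 688 lowest and mice 517 and 866 highest.

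The dim non-classical probes were the most variable members. H2-Bl (A_51_P247114) ranged from -6.40 in +/+ mouse 11 to -0.27 in +/+ mouse 17, with an SD over tumours of 1.93, and H2-T3 (A_51_P129127) had an SD of 1.63. They were well above background on 7 and 5 arrays. A brighter H2-Bl probe (A_52_P350519) differed by -0.56, without overlap. H2-M10.2, H2-Q1 and the probes of H2-T24 differed by 0.01 to 0.45, and by -0.53 to 0.23 without mouse 20 (-0.63 to 0.17 without mice 20 and 11). The probes of H2-M1, H2-M9, H2-M10.1, H2-M10.3 to H2-M10.6 and H2-M11 were well above background on 0 to 2 arrays and were not kept. Over the 25 kept non-classical probes, 11 were lower at an unadjusted p under 0.05, and 0 were higher. Beside this, 4.67% of all kept probes were lower, and 16.9% of those with a mean level of 5 or more. Their median difference was -0.47, or -0.16 after quantile normalization.

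**Figure D2:**
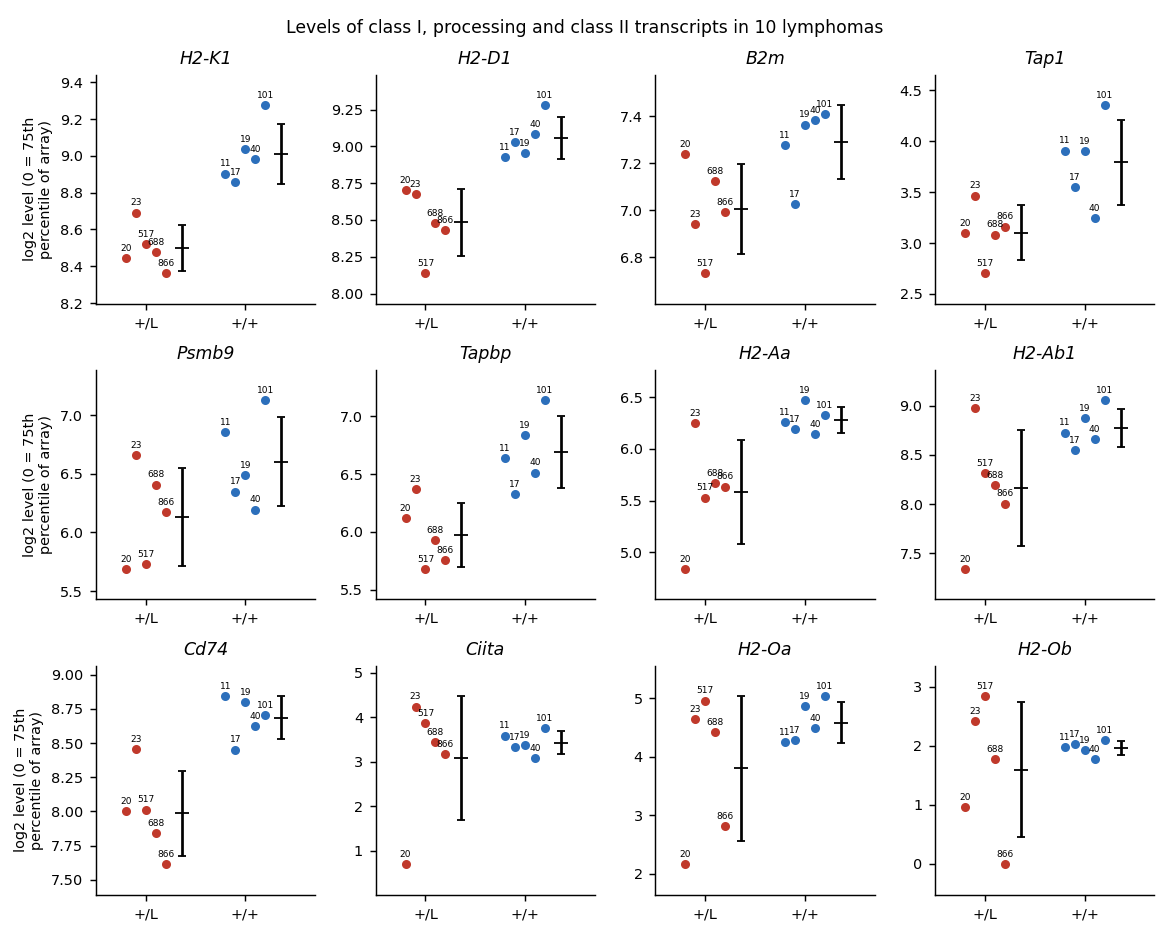
Log2 level (0 is the 75th percentile of the array) of 12 members in each of the 10 lymphomas, +/L in red and +/+ in blue, with mouse numbers beside the points. Horizontal ticks with bars are group means ± SD (n = 5). Each vertical axis has its own range. The genotypes do not overlap for H2-K1 and H2-D1, and mouse 20 is the lowest tumour for H2-Aa, H2-Ab1, Ciita and H2-Oa.

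B2m encodes the light chain that all class I heavy chains pair with. Of its 3 probes, 2 had SDs over the 10 tumours of 0.22 and 0.24, and the third had 0.84, the largest of the 11 machinery probes. The brightest B2m probe (A_51_P129012, chr2:121978401-121978460) read 7.24, 6.94, 6.73, 7.12 and 6.99 in the +/L tumours and 7.28, 7.02, 7.37, 7.38 and 7.41 in the +/+ tumours. Mice 20 and 688 lay above +/+ mouse 17, so the groups overlapped. The difference was -0.29 ± 0.18 (SE) (limma adjusted p = 0.7), and -0.03 after quantile normalization. Its sign turned to 0.052 with normexp and quantile normalization and to 0.13 in the deposited value table. Another B2m probe (A_51_P129006) differed by -0.32. The third (A_52_P105594), which maps at lower coordinates, chr2:121974599-121974658, and is listed for no RefSeq gene, read -0.00, 1.61, 2.67, 0.07 and 2.02 and 1.21, 1.61, 1.66, 0.64 and 1.1. Like the fifth H2-Q10 probe, it was lowest in mice 20 and 688 and highest in mice 517 and 866.

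The start region of B2m is on chromosome 2, apart from the H2 genes on chromosome 17 (RefSeq, GRCm38.p6, chr2:122147537-122147686, plus strand). Capitals mark AAACTGAAA, which is TTTCNNTTT of interferon response elements read from the other strand, 138 bases before the start, and ATTGG, 53 bases before it.
B2m: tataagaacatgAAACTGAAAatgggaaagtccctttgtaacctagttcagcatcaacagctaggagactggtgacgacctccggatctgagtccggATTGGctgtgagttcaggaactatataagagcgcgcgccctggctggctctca
On either strand TTTCNNTTT is in 10.6% and ATTGG in 37.4% of the 32851 windows.

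Tap1 and Tap2 form the peptide transporter, and they did not move alike. Tap1 (A_51_P100327, chr17:34330854-34330913) read 3.10, 3.47, 2.70, 3.08 and 3.16 in +/L and 3.91, 3.55, 3.90, 3.25 and 4.36 in +/+ tumours. Mouse 517 was lowest and mouse 101 highest, and only mouse 23 lay above the lowest +/+ tumour, mouse 40. The difference was -0.69 ± 0.24 (SE) (limma adjusted p = 0.594), -0.54 after quantile normalization, and -0.31, -0.82 and -0.97 within the slides. Tap2 (A_52_P86176) read 3.12, 2.97, 2.88, 3.12 and 2.99 and 3.04, 3.31, 1.79, 2.94 and 3.04, so that +/+ mouse 19 alone was low. The Tap2 difference was 0.19 ± 0.28 (SE) (limma adjusted p = 0.89), and -0.068 without mouse 19.

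Tapbp, or tapasin, which bridges class I chains to the transporter, had the largest differences of the machinery. Its brighter probe (A_51_P304500) read 6.12, 6.37, 5.68, 5.93 and 5.76 in +/L and 6.64, 6.33, 6.84, 6.51 and 7.14 in +/+ tumours, with mouse 23 just above +/+ mouse 17. It differed by -0.72 ± 0.22 (SE) (limma adjusted p = 0.594) and by -0.43 after quantile normalization. The dimmer probe (A_52_P684830) read 1.09, 0.90, -0.09, 0.63 and 0.50 and 1.33, 1.53, 1.71, 1.19 and 1.38. Its groups did not overlap, and it differed by -0.82 ± 0.24 (SE) (limma adjusted p = 0.594), or -0.77 after quantile normalization. Within the slides the dimmer probe differed by -0.50, -0.93 and -1.04.

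Psmb8, Psmb9 and Psmb10 are the interferon-inducible catalytic subunits of the immunoproteasome. Psmb8 (A_51_P345367) read 6.13, 6.41, 5.99, 6.82 and 6.21 in +/L and 7.09, 6.46, 6.82, 6.71 and 7.48 in +/+ tumours, a difference of -0.60 ± 0.25 (SE). Psmb9 (A_51_P369803) read 5.69, 6.66, 5.73, 6.41 and 6.17 and 6.85, 6.35, 6.49, 6.19 and 7.12, a difference of -0.47 ± 0.27 (SE). Psmb10 (A_52_P570266) read 5.27, 6.25, 6.07, 6.70 and 6.33 and 6.56, 6.33, 6.86, 6.74 and 7.19, a difference of -0.61 ± 0.28 (SE). In all 3 the groups overlapped, mouse 101 was highest, and mice 20 and 517 were among the 3 lowest +/L tumours. Without mouse 20 Psmb10 differed by -0.40, and without mice 20 and 11 Psmb9 differed by -0.30. The limma adjusted p-values of the 3 were 0.61, 0.679 and 0.627. Over the 11 machinery probes kept, 4 were lower at an unadjusted p under 0.05, and 0 were higher. At that threshold 4.67% of all kept probes were lower, and 16.9% of those with a mean level of 5 or more. The median difference of the machinery probes was -0.49, or -0.17 after quantile normalization.

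The bright class II chains H2-Aa, H2-Ab1 and H2-Eb1 were lowest in 1 tumour, that of +/L mouse 20. H2-Aa, the α chain of the A molecule (A_52_P343306, chr17:34421285-34421344), read 4.84, 6.25, 5.53, 5.67 and 5.64 in the +/L tumours. In the +/+ tumours it read 6.26, 6.19, 6.47, 6.14 and 6.32. Mouse 20 was lowest and mouse 23 lay inside the +/+ range. The remaining +/L tumours lay between, below every +/+ tumour. The means of 5.58 ± 0.50 and 6.28 ± 0.13 (SD, n = 5 each) differed by -0.69 ± 0.25 (SE) (limma adjusted p = 0.596), with -0.91, -0.37 and -0.76 within the slides and -0.43 after quantile normalization. The other H2-Aa probe differed by -0.65. Without mouse 20 the first probe differed by -0.51 and the other by -0.45.

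H2-Ab1, the β chain of the same molecule, was read by 4 probes that differed by -0.61, -0.66, -0.60 and -0.64. The brightest (A_52_P683598) read 7.34, 8.98, 8.31, 8.20 and 8.01 in +/L and 8.73, 8.55, 8.88, 8.66 and 9.05 in +/+ tumours (limma adjusted p = 0.627). H2-Eb1, the β chain of the E molecule (A_51_P393226), read 6.16, 7.71, 7.0, 7.0 and 7.13 and 7.49, 7.35, 7.67, 7.39 and 7.75, a difference of -0.53 ± 0.27 (SE) (limma adjusted p = 0.656). For both genes mouse 20 was the lowest and mouse 23 was among the 2 highest tumours of all 10. Without mouse 20 the brightest H2-Ab1 probe differed by -0.40 and H2-Eb1 by -0.32, and without mice 20 and 11 by -0.41 and -0.33. H2-Ea, the α chain of the E molecule, was well above background on 0 of 10 arrays. Some laboratory haplotypes, the b haplotype among them, are known to lack H2-Ea transcripts. A further H2-Ob probe (A_52_P278928) was well above background on 1 array, and both were left out. H2-Eb2 was dim and differed by 0.16 and 0.36 in its 2 probes, or by -0.068 and 0.14 without mouse 20 (0.048 and 0.29 without mice 20 and 11).

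The start regions of H2-Eb1 (RefSeq, GRCm38.p6, chr17:34305757-34305866, plus strand) and H2-Aa (chr17:34287824-34287933, minus strand) are given for comparison with those of class I. Capitals mark GCAACNGAT, letters of the X box bound by the RFX complex, and CTGATTGG, the Y box bound by NF-Y, through which CIITA is recruited.
H2-Eb1: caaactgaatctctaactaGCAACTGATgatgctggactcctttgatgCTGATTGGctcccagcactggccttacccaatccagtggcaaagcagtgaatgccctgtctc
H2-Aa: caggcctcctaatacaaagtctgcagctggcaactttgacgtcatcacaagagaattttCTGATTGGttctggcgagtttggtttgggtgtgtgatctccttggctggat
The X box letters begin 91 bases before the start of H2-Eb1. The Y box letters, which contain ATTGG, begin 62 bases before the start of H2-Eb1 and 51 before that of H2-Aa. GCAACNGAT is in 0.414% of all windows and CTGATTGG in 4.1%, on either strand. Of the 8 class II genes with a window, 2 hold the first (H2-Eb1 and H2-Eb2) and 4 the second. CTGATTGG is also in the windows of H2-K1 and H2-D1, of 10 of the 16 non-classical class I genes (62.5%), and of Psmb9 and Tap1.

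The peptide-loading class II genes were less even. H2-DMa, part of the DM molecule that exchanges peptides on class II, read 2.56, 4.30, 3.57, 4.07 and 3.84 in +/L and 4.47, 3.74, 4.17, 3.76 and 4.66 in +/+ tumours (A_51_P473734). Mouse 20 was lowest and the rest overlapped, with a difference of -0.49 ± 0.34 (SE) (limma adjusted p = 0.735), which was -0.22 without mouse 20 and -0.14 without mice 20 and 11. The DM β chains H2-DMb1 and H2-DMb2 differed by -0.23 and -0.54 in their brightest probes, and by -0.070 and -0.38 without mouse 20 (-0.14 and -0.35 without mice 20 and 11). H2-Oa and H2-Ob encode the DO molecule, which restrains DM and is made mainly by B cells. H2-Oa (A_51_P449325) read 2.16, 4.65, 4.96, 4.43 and 2.81 in +/L and 4.25, 4.29, 4.86, 4.49 and 5.04 in +/+ tumours. Mice 20 and 866 were low and mice 23, 517 and 688 were within the +/+ range, for a difference of -0.78 ± 0.52 (SE) (limma adjusted p = 0.726), or -0.37 without mouse 20 and -0.46 without mice 20 and 11.

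H2-Ob (A_52_P679470) read 0.95, 2.42, 2.84, 1.77 and -0.01 in +/L and 1.98, 2.03, 1.93, 1.78 and 2.10 in +/+ tumours. Here mouse 866 was lowest and mouse 20 next, while mice 517 and 23 lay above every +/+ tumour. The difference was -0.37 ± 0.47 (SE) (limma adjusted p = 0.875), 0.035 without mouse 866, -0.21 without mouse 20, -0.20 without mice 20 and 11, and 0.44 with age as a covariate. H2-DMb2 was likewise low in mice 866 (-0.03) and 20 (0.18) against 0.80 to 1.81 elsewhere. Mouse 866 had the lowest B-cell score and mouse 20 the next lowest (-0.46). The list was mixed in mouse 20, where Cd79a (1.55) was the highest and Fcer2a (-3.18) the lowest of the 10 tumours. The part of B-cell content in these levels was not tested. Over the 16 class II probes kept, 3 were lower at an unadjusted p under 0.05, 0 were higher and 0 had non-overlapping groups. At that threshold 4.67% of all kept probes were lower, and 16.9% of those with a mean level of 5 or more. The median difference of the class II probes was -0.57, or -0.33 after quantile normalization and -0.36 without mouse 20.

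The class II partners differed from each other. Cd74, the invariant chain that guards the class II groove, read 8.0, 8.46, 8.01, 7.84 and 7.61 in +/L and 8.84, 8.45, 8.80, 8.62 and 8.70 in +/+ tumours (A_51_P284608). Mouse 23 just passed +/+ mouse 17, mouse 866 was lowest, and the difference was -0.70 ± 0.20 (SE) (limma adjusted p = 0.594). Within the slides it was -0.62, -0.61 and -1.14, and after quantile normalization -0.32. Ciita (A_52_P109941, chr16:10526303-10526362) read 0.70, 4.24, 3.87, 3.44 and 3.18 and 3.59, 3.34, 3.38, 3.09 and 3.76. Mouse 20 alone was low, while mouse 23 was the highest of all. The Ciita difference of -0.35 ± 0.57 (SE) (limma adjusted p = 0.905) became 0.25 without mouse 20 and 0.29 without mice 20 and 11.

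Class I and class II were then set against each other tumour by tumour. For each class, the deviation of a tumour is the median over kept probes of its level minus the probe's mean over the 10 tumours, given as a description with no test. The classical class I deviations were -0.19, -0.21, -0.49, -0.28 and -0.20 in the +/L tumours and 0.18, 0.32, 0.25, 0.17 and 0.41 in the +/+ tumours. The class II deviations were -1.12, 0.48, -0.20, -0.24 and -0.34 in +/L and 0.30, 0.13, 0.34, 0.16 and 0.47 in +/+ tumours. Class I thus split by genotype, while class II ran from mouse 20 to mouse 23, both +/L. Those of the machinery were -0.35, -0.04, -0.57, 0.04 and -0.20 in +/L and 0.31, -0.02, 0.35, 0.10 and 0.76 in +/+ tumours, so that mouse 517 was lowest and mouse 101 highest.

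After quantile normalization the split of class I by genotype was gone, and that of mouse 20 in class II was not. The classical class I deviations then ran from -0.38 to 0.42 among +/L tumours and from -0.11 to 0.47 among the +/+, with mouse 866 second only to +/+ mouse 17. Mouse 20 had a class II deviation of -1.05, and mouse 23 of 0.52. With the other normalizations, mouse 20 read from -1.07 to -0.99. The tumour of mouse 20 was the one with the highest plasma cell score (2.09) and one of the 2 whose array did not match its labelled sex. Prdm1, which drives plasma cell formation and is known to repress Ciita, read 1.87 in mouse 20 and from -0.58 to 1.20 in the other tumours. The part of plasma cell content in its low class II levels was not tested.

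**Figure D3:**
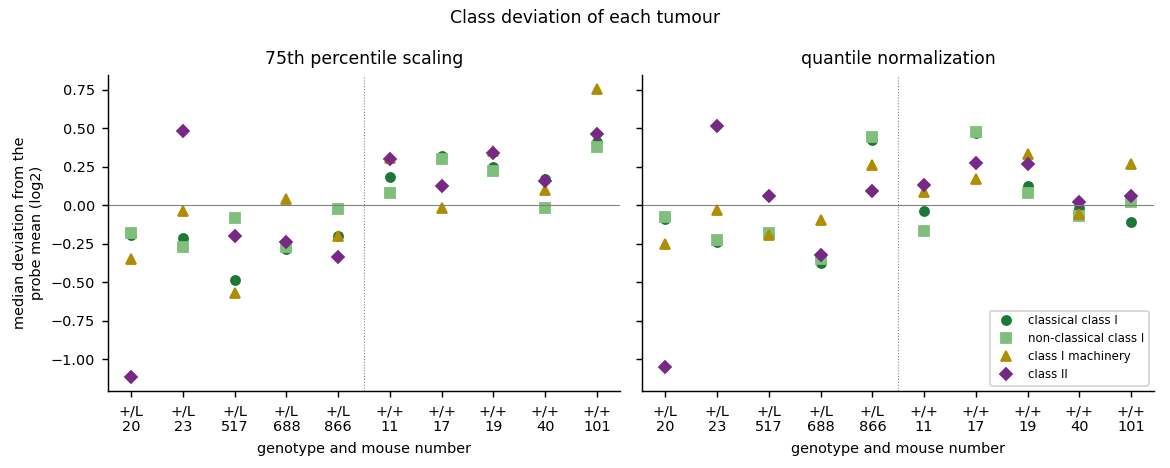
Median deviation of each tumour from the probe mean (log2 units), by class, with 75th percentile scaling (left) and after quantile normalization (right). Points are classes and tumours are ordered by genotype and mouse number, with a dotted line between +/L and +/+. Class II is at -1.12 in mouse 20 and at 0.48 in mouse 23 on the left, and stays at -1.05 and 0.52 on the right, where class I no longer splits by genotype.

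The spread over tumours was wider for class II than for class I, as a description. The median SD over the 10 tumours was 0.32 for the 8 classical, 0.40 for the 25 non-classical, 0.46 for the 11 machinery and 0.55 for the 16 class II probes kept. For all 26410 kept probes it was 0.56. Dim probes vary more, so the medians were also taken over probes with a mean level of 2 or more. They were then 0.32 for 21 class I probes, 0.45 for 9 machinery probes and 0.53 for 12 class II probes, beside 0.41 for 4721 kept probes of any gene. Without mouse 20 the median was 0.38 for class II and 0.34 for classical class I. The widest class II and partner probes were Ciita (0.96) and the 2 of H2-Oa (0.95 and 0.95).

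**Figure D4:**
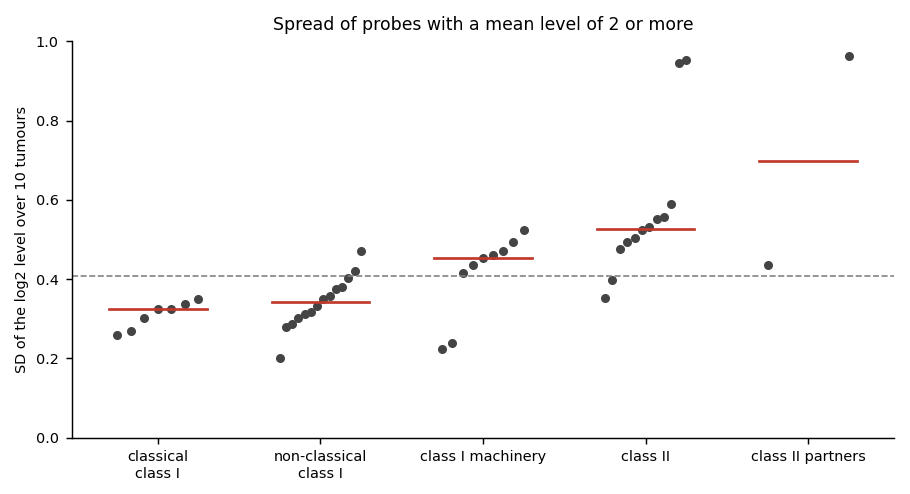
SD of the log2 level over the 10 tumours for each kept member with a mean level of 2 or more, by class. Points are probes, red lines are class medians, and the dashed line is the median of all 4721 kept probes of such level (0.41). Class I probes lie between 0.20 and 0.47, while class II probes lie between 0.35 and 0.95.

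Whether class I and class II genes varied together was asked with 17 gene pairs over the 10 tumours, each gene by its brightest kept probe, with permutation tests of 100000 resamples adjusted over the pairs by the Benjamini-Hochberg method. Of these pairs, 11 had an adjusted p under 0.05, and 4 after quantile normalization. H2-K1 and H2-Aa, the class I with class II pair, had r = 0.79 (permutation p = 0.0053, adjusted p = 0.0094) and Spearman's rho of 0.84 (permutation p = 0.0037). Without mice 101 and 866, the farthest in H2-K1, r was 0.85. Since H2-K1 split by genotype, deviations from each genotype's own mean were also correlated, with r = 0.46. After quantile normalization r was 0.40 (permutation p = 0.25, adjusted p = 0.29).

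Within class II, the pairs of H2-Aa with H2-Eb1 and with H2-Ab1 were tighter than that of H2-K1 with H2-Aa. H2-Aa and H2-Eb1 had r = 0.97 (permutation p = 4e-05, adjusted p = 0.00068) and rho of 0.92 (permutation p = 0.00045). H2-Aa and H2-Ab1 had r = 0.95 (permutation p = 0.00025, adjusted p = 0.0021) and rho of 0.89 (permutation p = 0.0011). Within genotypes the first r was 0.98 and the second 0.94. After quantile normalization they were 0.94 and 0.93, each with a permutation p adjusted to 0.0086. Without mice 20 and 517 they were 0.91 and 0.92.

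H2-Aa with Cd74 had r = 0.78 (permutation p = 0.0055, adjusted p = 0.0094) and rho of 0.83 (permutation p = 0.0048). The r was 0.95 without mice 20 and 517, 0.44 within genotypes and 0.59 after quantile normalization (permutation p = 0.081, adjusted p = 0.15). H2-Aa with Ciita had r = 0.73 (permutation p = 0.042, adjusted p = 0.055) and rho of 0.38 (permutation p = 0.28). The r was 0.093 without mouse 20, 0.85 without mouse 517 and 0.36 without mice 20 and 517. H2-Aa with H2-DMa had r = 0.85 (permutation p = 0.004, adjusted p = 0.0086, rho = 0.82 with permutation p = 0.0062), and r was 0.45 without the same mice and 0.78 after quantile normalization (adjusted p = 0.081 by permutation). H2-Aa with H2-Ob had r = 0.43 (permutation p = 0.21, adjusted p = 0.22, rho = 0.36 with permutation p = 0.31).

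Among class I and its machinery, H2-K1 with H2-D1 had r = 0.87 (permutation p = 0.0013, adjusted p = 0.0055) and rho of 0.82 (permutation p = 0.0057). It had 0.80 without mice 101 and 866, 0.45 within genotypes and 0.80 after quantile normalization (permutation p = 0.0053, adjusted p = 0.022). H2-K1 with B2m had r = 0.67 (permutation p = 0.036, adjusted p = 0.051, rho = 0.71 with permutation p = 0.026), and 0.84 after quantile normalization (permutation p = 0.0025, adjusted p = 0.014). Without mice 101 and 866 it was 0.55, and within genotypes 0.20. H2-K1 with Tap1 had r = 0.84 (permutation p = 0.0022, adjusted p = 0.0055, rho = 0.78 with permutation p = 0.01), 0.77 without the same mice and 0.16 after quantile normalization (permutation p = 0.67).

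Psmb9 and Tap1 lie head to head, with annotated starts 226 bases apart in RefSeq (GRCm38.p6). Their levels had r = 0.88 (permutation p = 0.0011, adjusted p = 0.0055) and rho of 0.81 (permutation p = 0.0073). The r was 0.83 within genotypes, 0.84 without mice 101 and 20, and 0.65 after quantile normalization (permutation p = 0.041, adjusted p = 0.092). Psmb8 with Tap1 had r = 0.85 (permutation p = 0.0023, adjusted p = 0.0055, rho = 0.78 with permutation p = 0.011), 0.61 without mice 101 and 517, and 0.71 after quantile normalization (adjusted p = 0.078 by permutation). The tumours of mice 101 and 11 were high and that of mouse 517 low in all 3 of these genes.

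**Figure D5:**
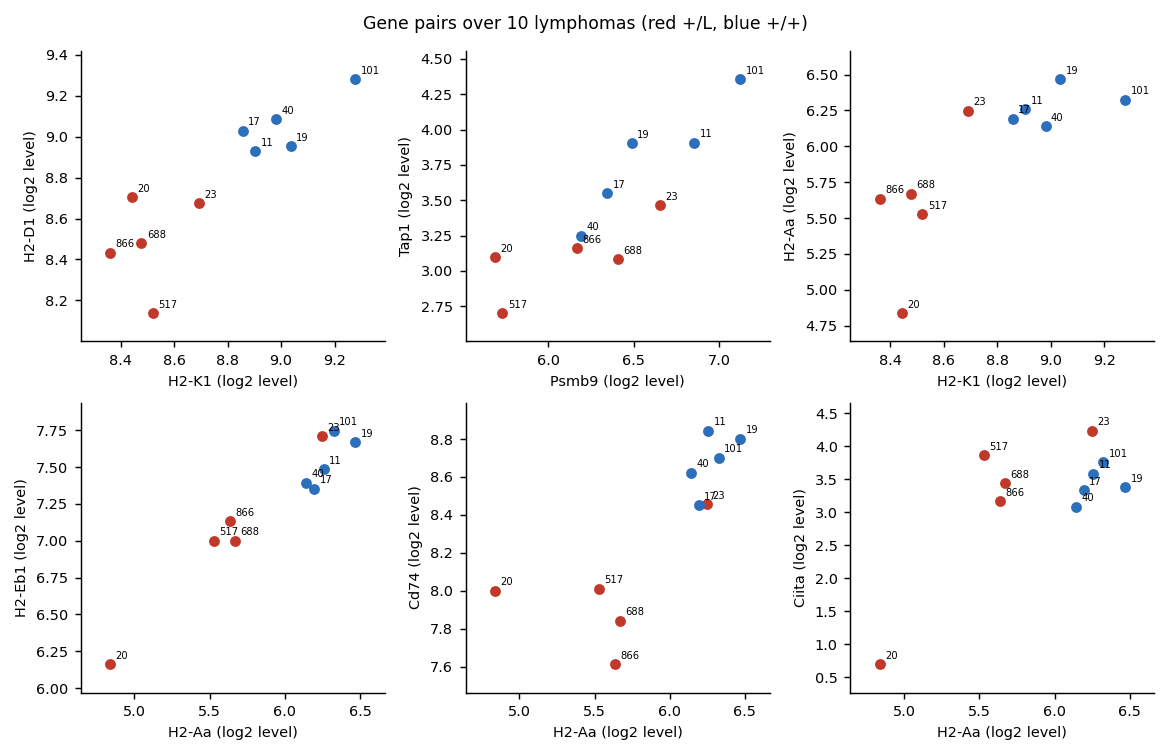
Log2 levels of 6 gene pairs in the 10 lymphomas, +/L in red and +/+ in blue, with mouse numbers beside the points. Each axis has its own range. The points of H2-Aa with H2-Eb1 lie along a line (r = 0.97), whereas for H2-Aa with Ciita mouse 20 lies far from the other tumours (r = 0.73, and 0.36 without mice 20 and 517).

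Pairs with genes outside the complex asked about interferon signalling and about cell content. Tap1 with Irf1, an interferon-induced activator of class I genes, had r = 0.75 (permutation p = 0.012, adjusted p = 0.018, rho = 0.76 with permutation p = 0.015) and 0.56 without mice 101 and 517. After quantile normalization it was 0.49 (permutation p = 0.15, adjusted p = 0.22). H2-Aa had r = 0.02 with the B-cell gene Cd79a (permutation p = 0.97, rho = -0.14 with permutation p = 0.71). With the T-cell gene Cd3e it had r = 0.63 (permutation p = 0.051, adjusted p = 0.062, rho = 0.54 with permutation p = 0.12). With the macrophage gene C1qa it had r = 0.58 (permutation p = 0.087, adjusted p = 0.099, rho = 0.71 with permutation p = 0.026). Without mice 20 and 517 the last 3 were 0.57, 0.31 and 0.55. Within genotypes these 3 were -0.16, 0.48 and 0.17, and after quantile normalization -0.33, 0.56 and 0.37.

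Other genes of the pathway were read from a list that holds no member. Of the 41 genes, all measured, 28 had a negative and 13 a positive difference, and 0 passed adjustment (smallest limma adjusted p = 0.594). Their median difference was -0.22, or -0.07 after quantile normalization, beside 0.01 and -0.08 for all kept probes. Kept probes with a mean level of 2 or more had medians of -0.17 and -0.01. Irf1 read 4.95, 5.74, 5.52, 5.99 and 6.25 in +/L and 6.15, 6.10, 6.60, 6.0 and 6.86 in +/+ tumours, a difference of -0.66 ± 0.28 (SE) (limma adjusted p = 0.615). Of the 11 genes of an interferon response list, which includes Irf1, 8 were lower in +/L. The 3 higher ones were Isg15 (0.34), Ifit1 (0.22) and Mx1 (0.73). The median difference of the 11 was -0.56, or -0.36 after quantile normalization, and 0 passed adjustment (smallest limma adjusted p = 0.594).

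Most of the genes named next from that list had negative differences, and Ctsl, Lgmn and Cd1d1 had positive ones. The proteasome activator subunits Psme1 and Psme2 differed by -0.41 and -0.35. The class II protease Ctss (cathepsin S) differed by -0.48, Ctsl by 0.48, and Ifi30, the lysosomal thiol reductase, by -0.56. Ctsb, Ctsd and Lgmn, also on the list, differed by -0.67, -0.58 and 0.19. Rfx5, Rfxap and Rfxank, whose products bind the X box, differed by -0.27, -0.19 and -0.12. Cd1d1, a class I-like molecule that presents lipids, differed by 0.78. For these genes the adjusted p of limma ran from 0.636 to 0.927. Irf8, which is active in B cells and in macrophages and dendritic cells, read 3.89, 6.81, 5.96, 6.30 and 5.49 in +/L and 6.49, 6.14, 6.42, 5.91 and 6.69 in +/+ tumours, with mouse 20 alone low.

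Markers of other antigen-presenting cells were lower in +/L tumours too, where macrophages are concerned. All 8 macrophage markers were lower in +/L, and the limma adjusted p was 0.594 or more. At an unadjusted p under 0.05 there were 3 (C1qa by -1.44, C1qb by -1.58 and C1qc by -1.33). At that threshold 4.67% of all kept probes were lower, and 16.9% of those with a mean level of 5 or more. After quantile normalization the 3 differed by -1.18, -1.39 and -1.07. Cd14 differed by -0.01, or 0.04 after quantile normalization. The macrophage score ran from -2.14 to 0.56 among +/L tumours and from -0.14 to 1.21 among the +/+. Mouse 517 had the -2.14, and the next lowest +/L score was -0.47, in mouse 688. The dendritic cell score ran from -0.57 to 0.21 and from -1.17 to 0.67, with 4 of 9 genes lower. The B-cell score ran from -1.64 to 0.80 and from -0.10 to 0.31, with 9 of 11 genes lower. All markers of these lists were kept, and each marker of the B-cell, T-cell and macrophage lists was well above background on all 10 arrays. The part of cell content in the class I and class II differences was not tested.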

How the data were processed

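Total RNA of 10 lymphomas was read on 1 single-colour Agilent array each, with 43379 non-control spots for 41174 probes. The authors' spot intensity values come from the scanner software Feature Extraction 10.5.1.1. Its processed signal was detrended across the slide (spatially and multiplicatively), per the file headers. Flags that mark spots as well above background, outlying or saturated come from the same software, per the file headers, and 0 non-control spots were saturated. The deposited value table holds log2 values with like quantiles on all arrays. How its background was corrected is not given in these sources, and it served as an alternative.

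Processed signals were put on the log2 scale and each array's 75th percentile over non-control spots was subtracted. Probes well above background on at least 3 arrays and without an outlier flag were kept. The filter decides which probes can be tested and the scaling how many read higher or lower, so alternatives to each were run. The test of genotype was limma 3.58.1 (lmFit, eBayes) in R 4.3.3 over all 26410 kept probes, with Benjamini-Hochberg adjustment and a threshold of 0.05. Each replicate is a tumour of a separately numbered mouse. A gene is shown by its kept probe with the highest mean. Coordinates of probes are those of the files (mm9), and no annotation of exons or introns was used. Values in every tumour were given for a fixed set of genes, and in each class for the 3 kept probes of lowest p and the 3 of largest SD. The members, gene lists and pairs were chosen with earlier results of these data known. Correlations used two-sided permutation tests of 100000 resamples over 17 pairs. 1 further pair, with Nlrc5, was not run, and 1 of the 17 is not reported here. On simulated data with the means and spreads of the 26410 probes, limma recovered 10% of probes changed by 1 log2 unit and 53.4% of those changed by 2 in 10 runs for this comparison.

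Alternatives changed background correction, normalization, filter, slide, covariate, probe rule and the set of arrays. Leaving out mice 20 and 11 together was chosen after seeing the data. The slide in the descriptions differed from that in the headers for 2 arrays.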

Additional observations from a re-analysis of the deposited data

Results flagged for a closer look

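Among the 44 groups of 5 tumours that were looked at, 1 held a value far from the others, where chance gives about 1 in 20. Tap2, a subunit of the peptide transporter, read 1.79 in +/+ mouse 19 against 2.94 to 3.31 in the other +/+ tumours, a gap of 0.76 of the group's range. The same tumour read 3.90 for Tap1.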

How the results depend on the processing

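No paired analysis was possible because the 2 genotypes share no mouse number. Counts of probes with a limma adjusted p under 0.05 were 0 except for 1 with normexp and quantile normalization, 1 in the deposited value table, and 0 to 3 when 1 mouse was left out (3 without +/L mouse 517). The 2103 probes at an unadjusted p under 0.05 became 963 with the description slide as a block, 1276 to 3349 when 1 mouse was left out (1276 without +/+ mouse 101, 3349 without +/L mouse 20), and 3640 without mice 20 and 11. The 27 members lower in +/L at that threshold became 6 with normexp and quantile normalization and 4 with quantile normalization. They became 6 in the deposited value table, 1 with the description slide and 11 with age as a covariate. With 1 probe per gene, where fewer probes are tested, they became 16. Over all probes tested, in either direction, the counts in the same order were 2373, 2212, 2398, 963, 1517 and 1525. The median differences moved by more than their spread to -0.12 (classical) and -0.14 (non-classical) with normexp and quantile normalization. With quantile normalization alone they moved to -0.14, -0.16 and -0.17 (machinery), and in the deposited value table to -0.041, -0.056 and -0.14. The non-classical median was -0.23 with no filter on dim probes and -0.22 with the description slide. The cause of these changes was not tested. The class II median kept its sign under every alternative run, from -0.80 without +/L mouse 23 to -0.20 in the deposited value table.

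Among single genes the sign turned for B2m (0.052 with normexp and quantile normalization, 0.13 in the deposited value table), and for H2-K1 (0.12) and H2-Q10 (0.015) in that table. It also turned for H2-Ob (0.44 with age, and from -0.68 to 0.035 when 1 mouse was left out, the highest without +/L mouse 866) and for Ciita (0.29 without mice 20 and 11, and from -0.64 to 0.25, the highest without +/L mouse 20). Tap2 ran from -0.068 without +/+ mouse 19 to 0.31. The other 387 values of single genes under an alternative kept their sign. The correlation of H2-K1 and H2-Aa was 0.58 with normexp and quantile normalization, 0.40 with quantile normalization and 0.41 in the deposited value table. That of H2-Aa and Cd79a was -0.33, -0.028, -0.33 and -0.42 with normexp and quantile normalization, median scaling, quantile normalization and the deposited value table, and from -0.55 to 0.37 when 1 mouse was left out. That of H2-K1 and Tap1 was -0.11 in the deposited value table. The median SD of class II probes was 0.38 without mouse 20, and that of non-classical probes 0.87 with no filter. Signal limits the 10 members that were not kept and the dim H2-Bl, H2-T3 and H2-Eb2 probes.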
